A study of Homo sapiens with 12 samples.

Results

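The 8 EGI-1 libraries of the series, of 12 in all, were used to ask for which genes the response to decitabine plus talazoparib differed from the responses to both drugs added together. EGI-1 is an established cholangiocarcinoma line, labelled WT, that was grown as a single line in six-well plates. Cells received vehicle (DMSO), 0.5 μM decitabine, 200 nM talazoparib or both agents for 72 h, and each of these 4 arms was sequenced as 2 libraries. Decitabine is a nucleoside inhibitor of DNA methyltransferases, and talazoparib inhibits the poly(ADP-ribose) polymerases PARP1 and PARP2 and traps them on DNA. The names of the talazoparib libraries carry T50, whereas labels and methods give 200 nM. No source says whether libraries of an arm came from separate cultures, so p-values measure the spread between libraries, which may be technical.

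The departure of a gene was its log2 level in the combination minus that in decitabine, minus that in talazoparib, plus that in vehicle. It is 0 where both single effects add up on the log2 scale, negative where the combination lies below the sum and positive where it lies above. It also equals the decitabine effect in talazoparib-treated cells minus the decitabine effect in vehicle-treated cells. Of 60651 genes in the table, 22406 had enough counts to be tested with edgeR's quasi-likelihood test, and a Benjamini-Hochberg adjusted p under 0.05 counted as a call. Levels are given in CPM (TMM-normalised counts adjusted for depth), and errors of arm means are SDs of 2 libraries.

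Total counts per library lay between 23139065 and 33181930. The library names form a lettered series (vehicle 1, decitabine 2, talazoparib 2 and combination 2) and a numbered series (the other 4), and each holds 1 library of every arm, so a departure can be read within each. Biliary and epithelial keratins were high in every library, with at least 120572 counts of KRT8 and 38040 of KRT19, and SPP1 and CFTR had at most 9. Combination 2 stood apart. It held 1983 counts of 16 blood-cell markers (67.9 CPM), with 381 for the pan-leukocyte gene PTPRC, 148 for the T cell receptor subunit CD3E and 247 for the immunoglobulin chain IGKC, while the other 7 libraries held between 8 and 38 (at most 1.15 CPM). These markers were chosen after their values were seen. Their part in the results was not tested, and results are therefore also given without combination 2.

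Replication-dependent histone genes encode the core histones H2A, H2B, H3 and H4 and the linker histone H1 that package newly made DNA in S phase. Their mRNAs are short, lack introns and, unlike other mRNAs, end in a conserved stem-loop in place of a poly(A) tail. The loop is bound by SLBP and guides 3′ end formation and decay, and the mRNAs are known to be lost quickly when DNA synthesis stops. The kit named in the methods depletes ribosomal RNA and does not select poly(A) tails.

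The departure was called for 36 genes, 0.161% of those tested. Of these, 34 lay below the sum (0.152%) and 2 above it (0.00893%). Of the 34 below the sum, 32 were replication-dependent histone genes, and the others were FST and IRF7. The genes above the sum were RGPD6 and SPCS2P4. At an unadjusted p under 0.05 there were 757 genes, 1.99% of those tested below the sum and 1.39% above it. Over all genes tested the median departure was -0.01. Precision followed the level: the 95% interval lay within 1 log2 unit of 0 on both sides for 99.1% of 6375 genes whose mean level reached 5 log2 CPM, but for 0.154% of 5849 genes under 0 log2 CPM. A 2-fold departure thus lay outside the interval for nearly all well-expressed genes and was not measurable at this depth for nearly all of the weakest.

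**Figure D1:**
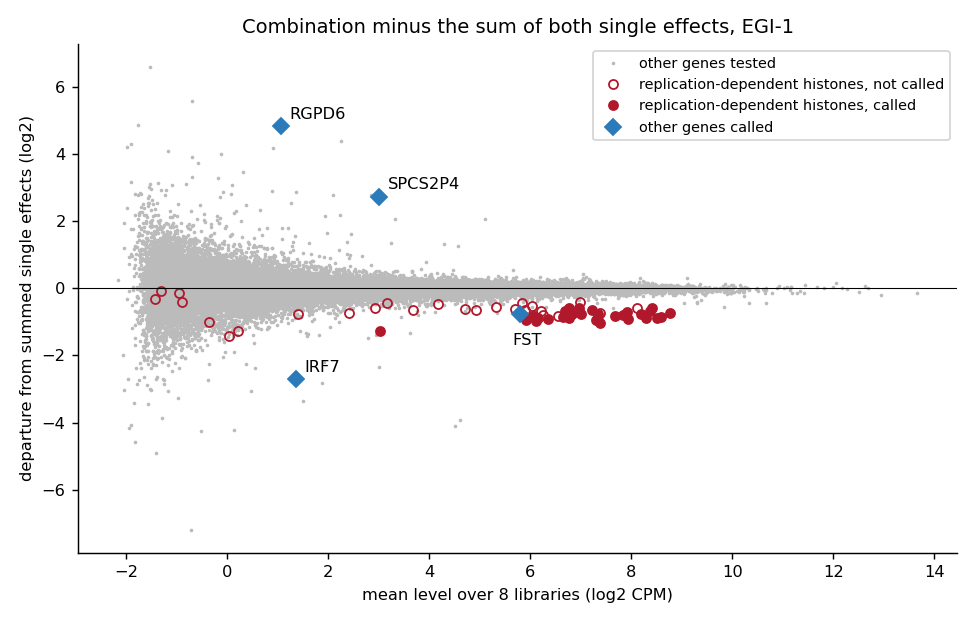
Departure from the summed single effects (log2, vertical axis) against the mean level over 8 libraries (log2 CPM, horizontal axis), 1 point per gene, for 22406 genes. Called histones (32, filled) form a band below 0 at high levels, 27 further histones (open) also lie below 0, and the 4 other called genes are drawn as diamonds.

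The stem-loops of called histones are shown because the loop is the feature that sets this gene group apart. The histone stem-loop consensus was searched over whole annotated transcripts, with no limit on the distance from the end. A match was found in all 59 replication-dependent histone genes tested and in 29 of 22347 other genes. Of the 4 other called genes 0 held a match. The list of histone genes was written from gene symbols, not from these letters, and it leaves out H2AC25, an H2A gene that holds a match, departed by -0.56 (SE 0.19) and was not called. In the following sites, written 5′ to 3′ on the sense strand as DNA letters of GRCh38, capitals mark the 16-base stem-loop.
H1-5, chr6:27866792-27866817, minus strand: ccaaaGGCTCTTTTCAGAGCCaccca
H2AC11, chr6:27133510-27133535, plus strand: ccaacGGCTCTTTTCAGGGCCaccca
H2BC4, chr6:26123467-26123492, minus strand: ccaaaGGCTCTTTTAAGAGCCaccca
H3C2, chr6:26031592-26031617, minus strand: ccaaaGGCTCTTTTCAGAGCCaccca
H4C8, chr6:26285126-26285151, minus strand: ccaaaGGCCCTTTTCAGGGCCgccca
The 16 letters of the H1-5 loop were found in 32 of the 59 genes, whose median departure was -0.78. Those of H4C8 were found in 9 H4 genes with a median of -0.59, and those of H2BC4 in 9 genes with a median of -0.59. A match of letters is a description and not a measured site.

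All 59 histone genes tested, of 69 listed, lay below the sum of the single effects, and 32 were called. Their median departure was -0.76, with a range from -1.41 to -0.09. In the numbered series the median was -0.86 and in the lettered series -0.63, and 55 of 59 lay below the sum in both, against 25.9% of all genes. All 59 also lay below the sum when levels were added on the linear CPM scale. Both combination libraries lay below the other 6 libraries in 54 of 59 genes, against 11.2% of all genes. Without combination 2 the median was -0.81 and 28 histones were called, and without vehicle 2, which lowered the count most, the median was -0.69 and 20 were called.

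The single agents acted differently on this group. With decitabine alone the median change of the 59 genes was -0.02, and 0 were called in either direction, where 0.518% of all genes were called higher and 0.0268% lower. With talazoparib alone the median was -0.56 and 44 were called lower, against 1.29% of all genes. In the combination the median against vehicle was -1.33 and 52 were called lower, against 7.61%. Set against talazoparib rather than vehicle, where no library is shared with the decitabine and vehicle comparison, decitabine went with a median change of -0.78.

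**Figure D2:**
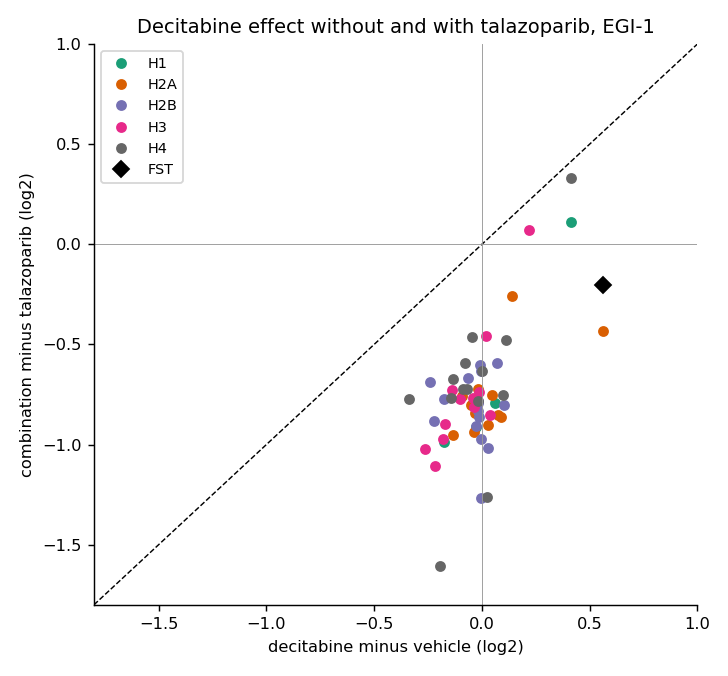
Effect of decitabine against vehicle (log2, horizontal axis) and of the combination against talazoparib (log2, vertical axis), 1 point per histone gene, coloured by class, with FST as a diamond. Every point lies below the dashed line of equal effects, most of them near 0 on the horizontal axis (median -0.02) and near the median of -0.78 on the vertical axis.

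Summed over the 59 histone genes tested, the level was 9414 and 8467 CPM in vehicle 1 and 2, 8702 and 8835 with decitabine, 6152 and 6254 with talazoparib, and 3454 and 3747 with the combination. Decitabine libraries lay within the range of vehicle, talazoparib libraries lay below all of these, and combination libraries lay lowest, with no overlap. The mean was 8941 ± 670 CPM in vehicle and 3601 ± 207 CPM in the combination (SD, n = 2), where adding both single log2 effects gave 6091 CPM. The log2 departure of the sum was -0.76, with -0.87 in the numbered and -0.65 in the lettered series. In bulk RNA, fewer cells in S phase and less histone mRNA per cell cannot be told apart.

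**Figure D3:**
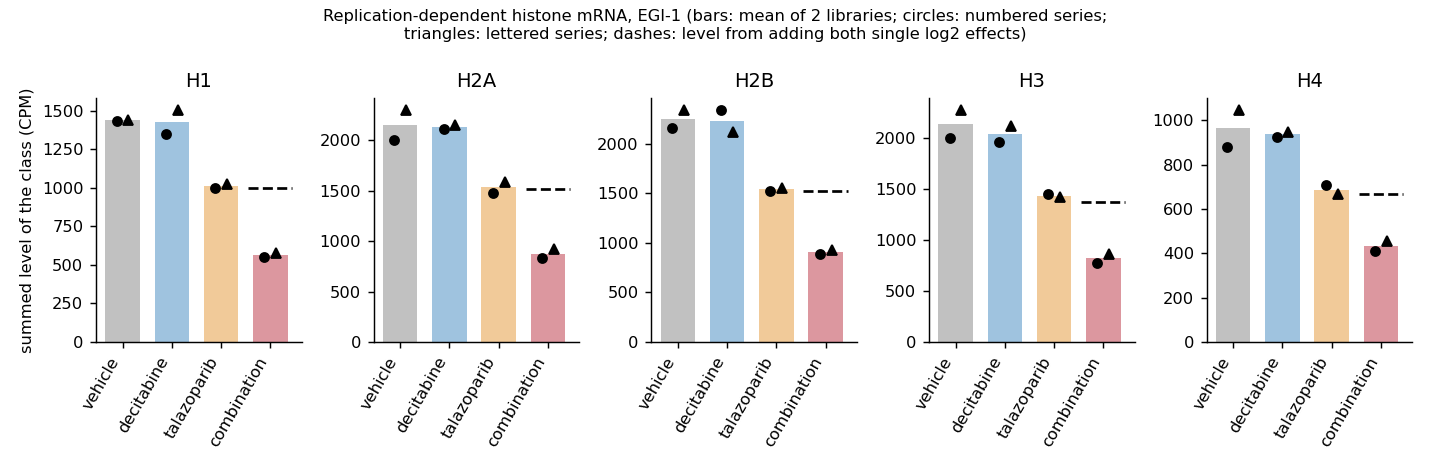
Summed CPM of each histone class in every library (points), with the arm mean of 2 libraries (bars from 0). The dashed line is the level that adding both single log2 effects gives, and in all 5 classes both combination libraries lie under it, for example at 550 and 577 CPM against 1001 CPM for H1.

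The linker histones of class H1 bind DNA between nucleosomes. Of 5 genes tested 4 were called below the sum, with a class median of -0.81. H1-5 (ENSG00000184357.5, chr6:27866792-27867588) had the smallest p of all genes. Its levels were 487 and 480 CPM in vehicle, 456 and 493 CPM with decitabine, 325 and 326 CPM with talazoparib and 172 and 174 CPM with the combination. Vehicle and decitabine overlapped, and the combination libraries lay at 173 ± 1.67 CPM (SD, n = 2) where the sum gave 320 CPM. The departure of H1-5 was -0.88 (SE 0.08, adjusted p = 5.64e-05). For H1-2 (ENSG00000187837.4) the combination libraries had 204 and 211 CPM, the talazoparib libraries 345 and 373 CPM, and the departure was -0.85 (SE 0.09, adjusted p = 0.000169). Outside the calls, H1-1 was close to the floor of detection and had a departure of -0.31 with an SE of 1.01.

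H2A and H2B form the dimers on the outside of the nucleosome. Of 12 H2A genes tested 8 were called below the sum (median -0.82), and of 16 H2B genes 13 were called (median -0.77). H2AC11 had 166.3 and 193 CPM in the combination and 304 CPM in each talazoparib library, and its departure was -0.66 (adjusted p = 0.0288). H2AC14 departed by -0.70 (adjusted p = 0.00222), and 3 of its 4 exon windows of 100 bases also occur elsewhere on the primary chromosomes. H2BC4 had 313 and 286 CPM in vehicle, 343 and 299 CPM with decitabine, 226 and 236 CPM with talazoparib, and 127 and 138 CPM with the combination. The combination libraries of H2BC4 lay below all others, and its departure was -0.90 (SE 0.10, adjusted p = 0.000252). H2BC12 departed by -0.59 (adjusted p = 0.00237), with 200.0 and 214 CPM in the combination against 310.9 and 319 CPM with talazoparib.

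H3 and H4 form the central tetramer. Of 12 H3 genes 4 were called (median -0.73), and of 14 H4 genes 3 were called (median -0.63). H3C7 had 157 and 168.4 CPM in the combination and 294 CPM in both talazoparib libraries, and departed by -0.89 (SE 0.09, adjusted p = 0.000169). H3C2, the replication-dependent histone with the highest mean level, had 606 and 540 CPM in vehicle, 545 and 590 CPM with decitabine, 382 and 385 CPM with talazoparib and 217 and 244 CPM with the combination. Its departure was -0.72 (SE 0.10, adjusted p = 0.00103), and the combination libraries were again the lowest 2 of 8. H4C8 departed by -0.76 (adjusted p = 0.00755) and H4C2 by -0.64 (adjusted p = 0.0269). Of all 8 libraries, H4C2 kept its call only when vehicle 1 or talazoparib 2 was the one left out, and without vehicle 2 it had -0.52 (adjusted p = 0.367). In the H4 class the series differed most, with medians of -0.81 in the numbered and -0.43 in the lettered series. H2BC4, H3C7 and H4C8 overlap annotated genes on the opposite strand, and whether the counting used strand is not given in the sources used here.

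Calls followed the level of a gene. Of 19 histones whose mean level reached 7 log2 CPM, 17 were called, of 24 between 5 and 7 it was 14, and of 16 under 5 it was 1, while the medians were -0.78, -0.77 and -0.64. The median SE fell from 0.42 in the lowest of these groups to 0.10 in the highest. Of the 59 genes, 47 lie on chromosome 6 (median -0.73, 28 called) and 11 on chromosome 1 (median -0.79, 4 called). None of the 59 had 50% or more of its exon windows on an alternate contig of GRCh38, but 10 had that share elsewhere on the primary chromosomes. Of these 10, H2BC18, H2AC13 and H2AC14 were called, and the lowest departure of the range (-1.41) was that of H4C15, whose 17 windows all occur elsewhere. The other 49 had a median of -0.75, with 29 called.

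Histone promoters are shown because genes with different promoter elements moved together. In the following stretches of 150 bases before the RefSeq start (GRCh38.p14, 5′ to 3′ on the gene's strand), capitals mark the TATA element (TATAA), the CCAAT box, the H1 element AAACACA and the octamer ATTTGCAT, each searched on both strands.
H1-5, chr6:27867589-27867738, minus strand: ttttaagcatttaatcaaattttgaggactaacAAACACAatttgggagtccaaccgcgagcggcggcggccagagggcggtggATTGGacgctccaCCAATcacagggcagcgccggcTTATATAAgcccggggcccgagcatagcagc
H2BC4, chr6:26123927-26124076, minus strand: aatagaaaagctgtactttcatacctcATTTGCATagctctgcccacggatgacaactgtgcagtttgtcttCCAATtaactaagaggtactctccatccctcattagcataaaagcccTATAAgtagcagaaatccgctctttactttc
H3C7, chr6:26250636-26250785, minus strand: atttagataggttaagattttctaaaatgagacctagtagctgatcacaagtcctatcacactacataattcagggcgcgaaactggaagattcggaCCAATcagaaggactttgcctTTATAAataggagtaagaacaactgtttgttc
Within 250 bases before the start, and with the first RefSeq start listed for each gene, TATAA was present in 92.6% of the promoters of the 54 tested histones that matched the table and in 19.6% of all 27305 promoters, and CCAAT in 83.3% and 33.0%. AAACACA was present in all 5 H1 promoters and in 0 of the 27 of H2A and H2B or the 22 of H3 and H4, against 4.9% of all. The octamer ATTTGCAT was present in 22 of 27 H2A and H2B promoters, in 0 of the H1, H3 and H4 promoters, and in 1.7% of all. All 3 promoter groups thus hold called genes. Each element was present in a larger share of called than of uncalled histone promoters, for the octamer in 56.7% of 30 against 20.8% of 24. The classes themselves differed in calls, with 4 of 5 H1, 8 of 12 H2A and 13 of 16 H2B genes called. For H3 it was 4 of 12 and for H4 3 of 14, so element and class cannot be told apart in these shares. The reason for the difference in shares was not tested, and the matches are a description of letters.

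Replacement histones are made outside S phase from ordinary polyadenylated mRNAs. Of 12 tested 0 were called, against 0.161% of all genes, and their median departure was -0.02, in a range from -0.55 to 0.26. At an unadjusted p under 0.05, 1 of them lay below the sum. H2AX, the variant phosphorylated at DNA breaks, can end in either a stem-loop or a poly(A) tail and holds a match. Its level was 667 ± 4.97 CPM in the combination where the sum gave 726 CPM, and its departure was -0.12 (95% interval -0.32 to 0.07).

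Among the 5 genes whose level over the 8 libraries followed the summed histones most closely, by Pearson's r over 11565 protein-coding genes, were NEBL (0.99), TMTC2 (0.99), LDHA (0.98) and SSRP1 (0.98). The 8 points share 4 arms, so r is a description of the pattern. Departures were -0.46 for NEBL and -0.47 for TMTC2, the glycolytic enzyme LDHA and the FACT chaperone subunit SSRP1 departed by -0.13 and -0.12, and none of these was called.

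Lists of the machinery around histone synthesis and replication had medians near the sum. For 17 genes of histone mRNA synthesis and processing the median departure was -0.01 and for 17 histone chaperones -0.05. In each 0 were called, against 0.161% of all genes, a share at which lists of this size usually hold 0 calls. ZNF473, a component of the U7 complex that cleaves histone pre-mRNA, had the largest departure of the processing list at -0.15 (SE 0.11). Among 47 genes of replication licensing and the fork the median was -0.03 and 0 were called, and among the 43 S phase genes of Seurat it was -0.07 with 0 called. Below the sum in both series lay 44.7% and 44.2% of these 2 lists, which share members, against 25.9% of all genes. For the processing genes that share was 17.6% and for the chaperones 35.3%. These S phase genes summed to 4761 CPM in vehicle, 4696 with decitabine, 4282 with talazoparib and 4041 with the combination, where the sum gave 4224. Of the 43, 19 were called lower in the combination against vehicle, where 7.61% of all genes were. DUT, the dUTPase that keeps uracil out of DNA, departed by -0.32 (SE 0.12). That was the largest departure of the nucleotide metabolism list among members whose mean level reached 1 log2 CPM. For the 54 G2/M genes the median was -0.02, for 35 genes of the Fanconi and homologous recombination pathways -0.05 and for 36 cyclins, CDK inhibitors and RB-E2F genes -0.01, with 0 called in each.

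**Figure D4:**
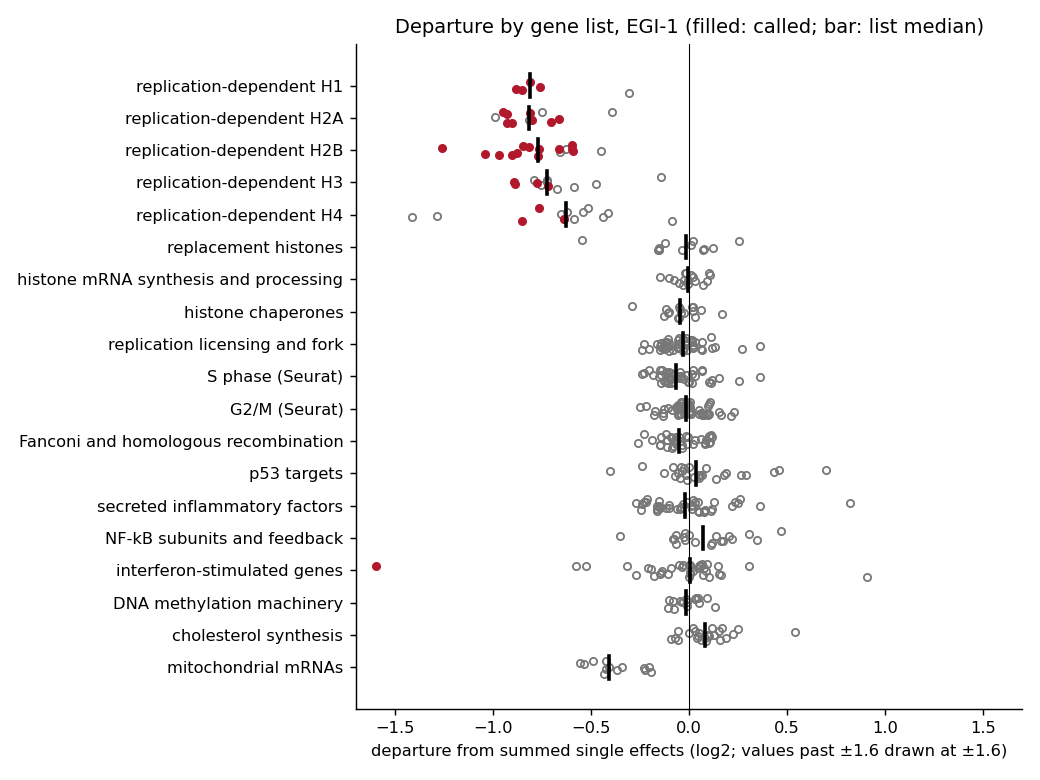
Departure from the summed single effects (log2) of each tested member of 19 gene lists (points, filled where called), with the list median as a bar. The 5 histone classes lie to the left with medians between -0.82 and -0.63, and the medians of the other lists lie between -0.05 and 0.08 except for S phase genes (-0.07) and mitochondrial mRNAs (-0.41).

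As lists, inflammatory and stress genes also had medians near the sum. The 42 secreted inflammatory factors had median changes of 0.25 with decitabine, 0.32 with talazoparib and 0.71 with the combination, and 27 were called higher in the combination against vehicle (11.1% of all genes). Their median departure was -0.02 with 0 called, and their summed level of 5535 ± 4.09 CPM (SD, n = 2) in the combination compares with 5512 CPM from the sum. CXCL8, a neutrophil chemokine, had the largest departure among members whose mean level reached 1 log2 CPM, at 0.36 (SE 0.13). IL6 had 4.81 and 4.21 CPM in the combination and departed by 0.26, with a 95% interval from -0.34 to 0.86. For 20 NF-κB subunits and feedback genes the median was 0.07, for 28 p53 targets 0.04, and 0 of these were called. NFKBIA, the inhibitor that holds NF-κB in the cytoplasm, departed by -0.36 (SE 0.11). That was the most in its list among members whose mean level reached 1 log2 CPM. NFKBIA had 105 and 103 CPM in the combination against 133 and 129 CPM with talazoparib. Without decitabine 1 the departure of NFKBIA was -0.49 and was called (adjusted p = 0.00315).

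CDKN1A, which encodes the cell cycle inhibitor p21, had 69.7 and 69.0 CPM in vehicle, 103 and 85.8 CPM with decitabine, 92.0 and 89.5 CPM with talazoparib and 149 and 147 CPM with the combination. Both single agents raised it, and the combination libraries lay above all others. Its departure was 0.26 (95% interval 0.04 to 0.49) and was not called. Without decitabine 1, the higher of the decitabine libraries, the departure of CDKN1A was 0.40 and was called (adjusted p = 0.0411). LMNB1, the lamina protein lost in senescent cells, had 170 ± 4.32 CPM in the combination where the sum gave 186 CPM, and departed by -0.13 (SE 0.08). The drug targets lay near the sum, with -0.04 for DNMT1, 0.05 for DNMT3A, -0.08 for DNMT3B, -0.04 for PARP1 and -0.12 for PARP2, none called. Of the NKG2D ligands, MICA had at most 2 counts in any library and was not tested, and MICB had under 1 CPM in every library with a departure of -2.72 and an interval from -6.08 to 0.64. All 24 exon windows of MICB also occur on alternate contigs, and the part of that in its low counts was not tested.

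Genes that decitabine raised in HUCCT1, the other cholangiocarcinoma line of the series, were followed in EGI-1 because they respond to the drug in an independent line. HUCCT1 had received 1 μM decitabine or vehicle for 72 h, with 2 libraries each, a higher dose than the 0.5 μM of EGI-1. Of 2694 genes raised there by more than 1 log2 unit, 1492 were tested in EGI-1. Their median change with decitabine was 0.19 against vehicle and 0.23 against talazoparib, their median departure was 0.02, and 2 of the 1492 were called, against 0.161% of all genes. These were FST and IRF7, both below the sum. Of the 3 germline and cancer-testis genes with enough counts, of 41 listed, 0 were called. Among 24 cholesterol synthesis genes 23 had intervals within 1 log2 unit of 0, with a list median of 0.08 and 0 called. Of these 24, 19 lay above the sum, and 15 did so in both series, against 5174 of all 22406 genes.

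FST encodes follistatin, a secreted antagonist of activins. It lies at chr5:53480626-53487134 (ENSG00000134363.12), and none of its 25 exon windows occurs elsewhere in the genome. It had 31.6 and 32.2 CPM in vehicle, 46.2 and 48.0 CPM with decitabine, 76.8 and 76.3 CPM with talazoparib and 65.3 and 67.8 CPM with the combination. Each single agent raised it and the arms did not overlap, but the combination lay between the single agents and not above them. Adding both single effects gave 113 CPM against 66.6 ± 1.76 CPM measured (SD, n = 2). Its departure was -0.76 (SE 0.10, adjusted p = 0.000645), with -0.76 in the numbered and -0.77 in the lettered series. The activin subunit INHBA departed by 0.05 and the follistatin-like FSTL3 by 0.21 (SE 0.14).

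IRF7, a transcription factor of the interferon response, had 1.42 and 0.796 CPM in vehicle, 1.52 and 1.55 with decitabine, 6.67 and 5.41 with talazoparib and 0.815 and 1.66 with the combination. Only the talazoparib libraries stood out, and the departure of IRF7 was -2.70 (SE 0.44, adjusted p = 0.00755). The call was lost without vehicle 2 (-2.36, adjusted p = 0.0825) and without talazoparib 1 (-2.55, adjusted p = 0.0505). Of its 23 exon windows 22 (95.7%) occur on an alternate contig as well as on chromosome 11. Its neighbour PHRF1 had 2.11 and 0.796 CPM in vehicle, 1.02 and 0.580 with decitabine, 5.12 and 15.7 with talazoparib, and 1.502 and 1.07 with the combination. PHRF1 was thus also highest with talazoparib, with a wide gap between those 2 libraries. Among the 36 interferon-stimulated genes tested IRF7 was the only call, the list median was 0.00, and IRF1, IRF3 and IRF9 departed by 0.17, -0.04 and 0.09.

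RGPD6, a member of the RANBP2-like family on chromosome 2, had 5.75 and 3.71 CPM in vehicle, 0.670 and 0.464 with decitabine, 0.603 and 0.605 with talazoparib and 2.96 and 1.34 with the combination. Vehicle was highest and both single agents lowest, so that its departure of 4.85 (SE 0.54, adjusted p = 0.000312) came with a combination level below vehicle. Of its 121 exon windows 120 occur elsewhere on the primary chromosomes, and its near-copy RGPD5 departed by 0.37 (SE 0.49). Added together, RGPD5 and RGPD6 had 7.24 and 5.80 CPM in vehicle and 2.15 and 2.16 CPM with decitabine. Both loci together had 5.08 and 2.57 CPM with talazoparib and 7.25 and 4.34 CPM with the combination. SPCS2P4, a processed pseudogene of the signal peptidase subunit SPCS2, showed the same order as RGPD6. It had 17.6 and 12.05 CPM in vehicle, 3.14 and 5.33 with decitabine, 5.04 and 3.75 with talazoparib and 8.28 and 8.14 with the combination. It departed by 2.74 (SE 0.35, adjusted p = 0.00862), and 2 of its 6 windows occur elsewhere. SPCS2 itself departed by -0.28 (SE 0.11) and was not called. Added together, SPCS2 and SPCS2P4 had 72.8 and 68.8 CPM in vehicle and 69.1 and 66.8 CPM with decitabine. Both loci together had 62.2 and 66.5 CPM with talazoparib and 60.3 and 68.2 CPM with the combination. The call of SPCS2P4 was lost without either talazoparib library or either combination library, with values between 2.53 and 2.95 and adjusted p up to 0.244. How reads that match several places were counted is not given in the sources used here, and its part in these calls was not tested.

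**Figure D5:**
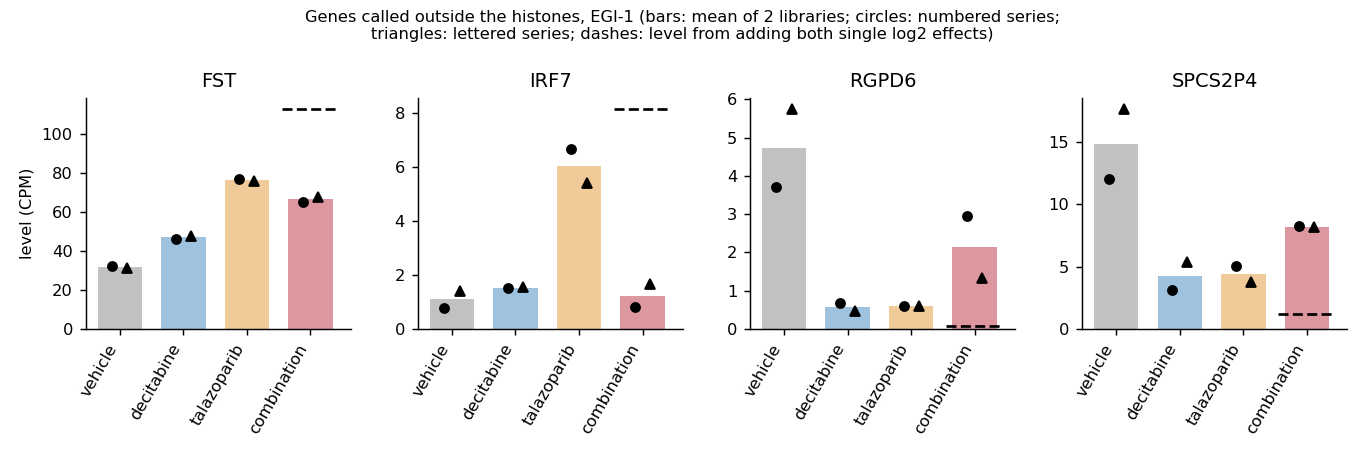
CPM of the 4 called genes outside the histones in every library (points), with the arm mean of 2 libraries (bars from 0) and the level from adding both single log2 effects (dashes). FST and IRF7 lie below the dashes in the combination (66.6 against 113 CPM for FST), and RGPD6 and SPCS2P4 lie above them but below vehicle.

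Sequence shared with alternate contigs went with large departures in general. Of 48 genes outside the histones with an absolute departure over 1 and a mean level of 1 log2 CPM or more, 28 (58.3%) had 50% or more of their exon windows on alternate contigs, against 118 of 13636 (0.865%) with a smaller departure. When such genes were left out before the fit, 35 genes were called, of which 32 were histones. This alternative was chosen after the values of IRF7 and its neighbours were seen.

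Among genes that were not called, those with the smallest p-values on the same side in both series included UCA1, EIF3C, SP2, B3GLCT and BTBD7 below the sum and PCMTD2, TRIM16, TNFAIP3, ENSG00000258130, TNFAIP2 and GADD45A above it. UCA1, a long non-coding RNA, had 650 and 675 CPM in vehicle, 721 and 762 with decitabine, 554 and 649 with talazoparib and 508 and 496 with the combination, and departed by -0.42 (adjusted p = 0.136). UCA1 was called with DESeq2, without a filter on low counts, and without decitabine 1 or talazoparib 1, at values between -0.53 and -0.42. TNFAIP3, the ubiquitin-editing inhibitor of NF-κB also called A20, had 110.5 and 113 CPM in vehicle, 132 and 119 with decitabine, 124 and 134 with talazoparib and 180 and 188 with the combination, and departed by 0.35 (adjusted p = 0.711). Without decitabine 1 the departure of TNFAIP3 was called (0.43, adjusted p = 0.0225). Its combination libraries lay above all others. GADD45A, a p53-responsive stress gene, had 26.4 and 26.7 CPM in the combination where the sum gave 19.7 CPM, and departed by 0.43 (adjusted p = 0.987). EIF3C and ENSG00000258130 (96.6% and 100% of exon windows elsewhere on the primary chromosomes) and BTBD7 and PCMTD2 (100% and 62.5% on alternate contigs) share sequence with copies.

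The 13 mitochondrial mRNAs all lay below the sum, with a median of -0.41, but 0 were called and their median SE was 0.42. Decitabine 1 held 21065 CPM of these transcripts and decitabine 2 held 14629 CPM, while the other 6 libraries held between 13356 and 16766 CPM, and the part of that library in this median was not tested. The 11 short non-coding RNAs tested, of 27 listed, also lack a poly(A) tail and had a median departure of -0.03 with 0 called. Their departures ranged from -1.43 to 0.51 with a median SE of 0.49, and 5 had intervals within 1 log2 unit of 0. A departure of the size of the histone median (-0.76) could thus be missed in this list.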

How the data were processed

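RNA was sequenced from EGI-1 cells in 4 arms of 2 libraries, after 72 h. The authors deposited raw counts per gene, whole numbers with no normalization, for 60651 Ensembl genes. The submitters' processing notes name fastp, Trim Galore, HISAT2, featureCounts and GRCh38, while the paper's methods name STAR and RSEM, so the program that made the counts is uncertain. Use of strand and of reads with several matches is not given in the sources used here. Total counts between 23139065 and 33181930 per library set the precision. Symbols and positions came from GENCODE 44 on GRCh38 (60437 genes matched), promoters from RefSeq (GRCh38.p14).

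All 8 libraries were fitted in a single model of 4 arms with edgeR 4.0.16 (filterByExpr, TMM factors between 0.990 and 1.01, robust quasi-likelihood, two-sided), and 22406 genes were tested. Log2 CPM within a series used a prior count of 2. Alternatives used DESeq2 1.42.0, limma-voom 3.58.1, other scalings and filters, a replicate block and each library left out. S phase and G2/M lists came from Seurat 5.3.0. Data were simulated with this design, with spread taken from the fitted trend over level and not from single genes or libraries. Departures were planted in genes whose mean level reached 5 log2 CPM. Of 100 genes with a 2-fold departure 100% were recovered, and of 100 with a 1.5-fold departure 85%. There were 9 false calls among 21937 genes. In the measured data the spread between replicates differed between arms, so recovery there may be lower and was not tested. Exon windows of 100 bases were searched on 261 alternate contigs and, for named and histone genes, elsewhere on the primary chromosomes. The histone consensus was searched over whole transcripts, keeping the match nearest to a transcript's end, with 5 flanking bases shown.

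Named genes were all calls outside the histones and the 2 called histones per class with the highest mean CPM. Further named genes were 6 above and 6 below the sum with the smallest p. These were not called, had a mean of 1 log2 CPM or more and lay on 1 side in both series. Genes the study names were included, as were the 5 genes most like the summed histones. Each other list gave its highest member and its most departing member with a mean of 1 log2 CPM or more. The latter is given where a result turned on it. PHRF1, RGPD5, SPCS2, INHBA, FSTL3, H2AC25, H1-1, H2BC18, H2AC13, H4C15 and the blood-cell markers were added after their values were seen. Members, lists and tests were chosen with earlier results of these data known. Checks for pairing gave correlations of deviations between -0.25 and 0.21 over 6 pairs of arms for the numbers in the titles as for the series. These did not show a pairing by either, and with 2 libraries an arm they cannot exclude one. No 2 libraries were identical. Some genes that these rules name are not reported here.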

Additional observations from a re-analysis of the deposited data

Results flagged for a closer look

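The 4 calls outside the histones are listed here because the decitabine effect in talazoparib-treated cells differed from that in vehicle-treated cells by the test of the difference itself. That difference was -0.76 for FST, -2.70 for IRF7, 4.85 for RGPD6 and 2.74 for SPCS2P4 on the log2 scale. FST was called under each of the 20 alternatives, with values between -0.79 and -0.73. RGPD6 was also called under each of them, between 4.20 and 5.33, but shares 120 of 121 exon windows with other loci. IRF7 was called under 17 of 19 and SPCS2P4 under 16 of 20.

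The 32 replication-dependent histone genes called below the sum are listed for the same test. Combination 2 is listed for its 1983 counts of blood-cell markers, which no comparison used and which lay above the 8 to 38 counts of every other library. When combination 2 alone stood for its arm, 23 genes were called above the sum, among them CD52, ITGA4, HCLS1 and SASH3, which are known from blood cells and had 71, 106, 112 and 68 counts in that library. Arms of 2 libraries were not tested for outlying samples.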

How the results depend on the processing

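All 59 histones, or the 55 left by the strictest filter, stayed below the sum under RLE, upper-quartile and total-count scaling, scaling without histone genes, DESeq2, edgeR without robust estimation and the strict filter, and 58 did with limma-voom. These gave 33 to 44 calls, 29 to 38 of them histones. Without a filter on low counts 71 genes were called (57 below, 14 above, 45 histones, 8 of the HUCCT1 list), and at an unadjusted p it was 757. DESeq2 called 4 genes of the HUCCT1 list, and leaving out genes copied on alternate contigs 1. None of the 14 named calls reversed, and 28 of their 279 values lost significance, 9 of them for H4C2 and 7 for H2AC11. Called genes that are not named were not followed singly.

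With each library left out in turn, calls ranged from 27 to 85 (22 to 79 below, 2 to 23 above), histone calls from 20 to 36, the histone median from -0.82 to -0.69, calls of the HUCCT1 list from 1 to 10 and its median from -0.00913 to 0.10. Lone libraries are then assumed to vary like the others. The 85 calls came without decitabine 1, the library high in mitochondrial mRNAs, and the 27 (20 histones) without vehicle 2. The 23 calls above came without combination 1, 5 without vehicle 2, 6 without decitabine 1 and 4 without vehicle 1 or decitabine 2. For the HUCCT1 list the 10 calls came without decitabine 1, 8 without combination 1, 4 without vehicle 1, and 1 without vehicle 2 or talazoparib 1, and the median of 0.10 without decitabine 2. Causes were not tested.

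With a replicate block on the numbers in the titles 33 genes were called, 29 of them histones, and with a block on the series 40, 36 of them histones. Neither was seen to pair the libraries, and 1 of 6 correlations of deviations was over 0.1.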
